A study of Mus musculus with 2 samples.

Results

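The proteasome genes were taken as every feature whose symbol begins with Psma to Psmg and a digit, which gave 50 genes of the 32285 measured. One match, Psmc3ip, is a cofactor of meiotic recombination named for its binding to a proteasome ATPase and is described apart at the end, which leaves 49. These are 8 alpha subunits and 7 standard beta subunits of the core, and 4 immuno- and thymoproteasome beta subunits. The others are 6 ATPases and 11 non-ATPase subunits of the regulatory particle, 3 chaperones of its base, 4 chaperones of the core, and 6 activator and inhibitor genes. They were measured by single-cell RNA sequencing of whole testis in 2 libraries, 1 from Prm2 +/- mice (heterozygous) and 1 from Prm2 -/- mice (knockout). No wild-type library was analysed here. Prm2 encodes protamine 2, which packs sperm DNA. Both groups were prepared alike. Tubules were mechanically isolated, treated with collagenase, washed to lower the number of Leydig cells and dispersed with Accutase. Of these cells 15000 per group entered the 10x Genomics 3' v3.1 kit. The labels give no age, strain or number of animals, nor which part of Prm2 was altered. With 1 library per genotype there is no replicate and no test, and the differences between libraries have no replicate check. Every interval below is at 95% and covers counting error only.

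The proteasome is the protease of the cytosol and nucleus that degrades ubiquitin-tagged proteins. Its barrel-shaped core has outer rings of alpha subunits, which gate the entrance, and inner rings of beta subunits, of which Psmb5, Psmb6 and Psmb7 carry the cutting sites. A regulatory particle of ATPases (Psmc) and further subunits (Psmd) binds tagged proteins, unfolds them and feeds them in. Other caps are the activators made of Psme1 and Psme2, of Psme3, or of Psme4, while Psmf1 encodes an inhibitor of the core. Testis has its own form, the spermatoproteasome, in which the alpha subunit Psma8 takes the place of its paralog Psma7. Psma8 is required for male meiosis in mice, and Psme4 is tied to the degradation of acetylated histones when spermatids exchange histones for protamines.

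RNA molecules were counted by unique molecular identifiers (UMIs), 71364845 in 15210 barcodes of the heterozygous and 123588822 in 22885 of the knockout library. Of the barcodes, 14576 and 18960 were kept. The libraries shared 88 barcodes. Both hold more barcodes than the cells the protocol gives, and doublet calling removed 3.07% and 15.7% of cells. Prm2 stood at 37623 CPM (counts per 1000000 UMIs of the same cells) in elongating-spermatid-like cells of the Prm2 +/- library and at 13 CPM in those of the Prm2 -/- library. Each captured molecule counts once, so CPM were not scaled by gene length, and an effect of gene length on the counts was not tested. Clusters were named from marker genes, as "like" a cell type. The elongating spermatid marker Prm1 stood at 23440 and 7874 CPM in Sertoli-like cells, which nurse the germ cells, where spermatid RNA is counted as well, at a higher level in the heterozygous library. The 405008 and 713333 UMIs of the 49 genes were 0.568% and 0.577% of all UMIs.

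To follow the genes through sperm formation, 11 deep germ cell clusters were put in order by hand from their markers, after the data were seen, and are called steps 1 to 11. Step 1 is spermatogonia-like, step 2 early-spermatocyte-like, steps 3 and 4 late-spermatocyte-like (step 4 led by the division gene Cdk1), step 5 unnamed with late spermatocyte and round spermatid markers, steps 6 and 7 round-spermatid-like and steps 8 to 11 elongating-spermatid-like. Step 9 is mostly knockout (209 heterozygous and 2761 knockout cells) and step 10 mostly heterozygous (1719 and 106), so these neighbours are not matched between libraries. The proteasome genes were kept out of the genes used for clustering, but other genes of the same cells formed the clusters, so differences between steps are descriptions. Together the 49 genes stood at 8361 and 8684 CPM in step 1 of the heterozygous and knockout libraries, 7288 and 7255 CPM in step 3, 5042 and 5022 CPM in step 7 and 4422 and 4869 CPM in step 10. Without the core subunit Psma6 and the inhibitor Psmf1 the sum was 7894 and 8206 CPM in step 1 and 1482 and 1685 CPM in step 10, so these 2 genes made up most proteasome RNA counted there. Of the 45 genes that reached 10 CPM in some step of each library, 19 were highest in step 1 in both libraries, 8 in steps 2 to 4 and 6 in steps 5 and 6. Psme3 and Psmf1 alone were highest in the same later step of both libraries, steps 8 and 10. Another 10, Psma6 among them, were highest in different steps of the 2 libraries.

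**Figure D1:**
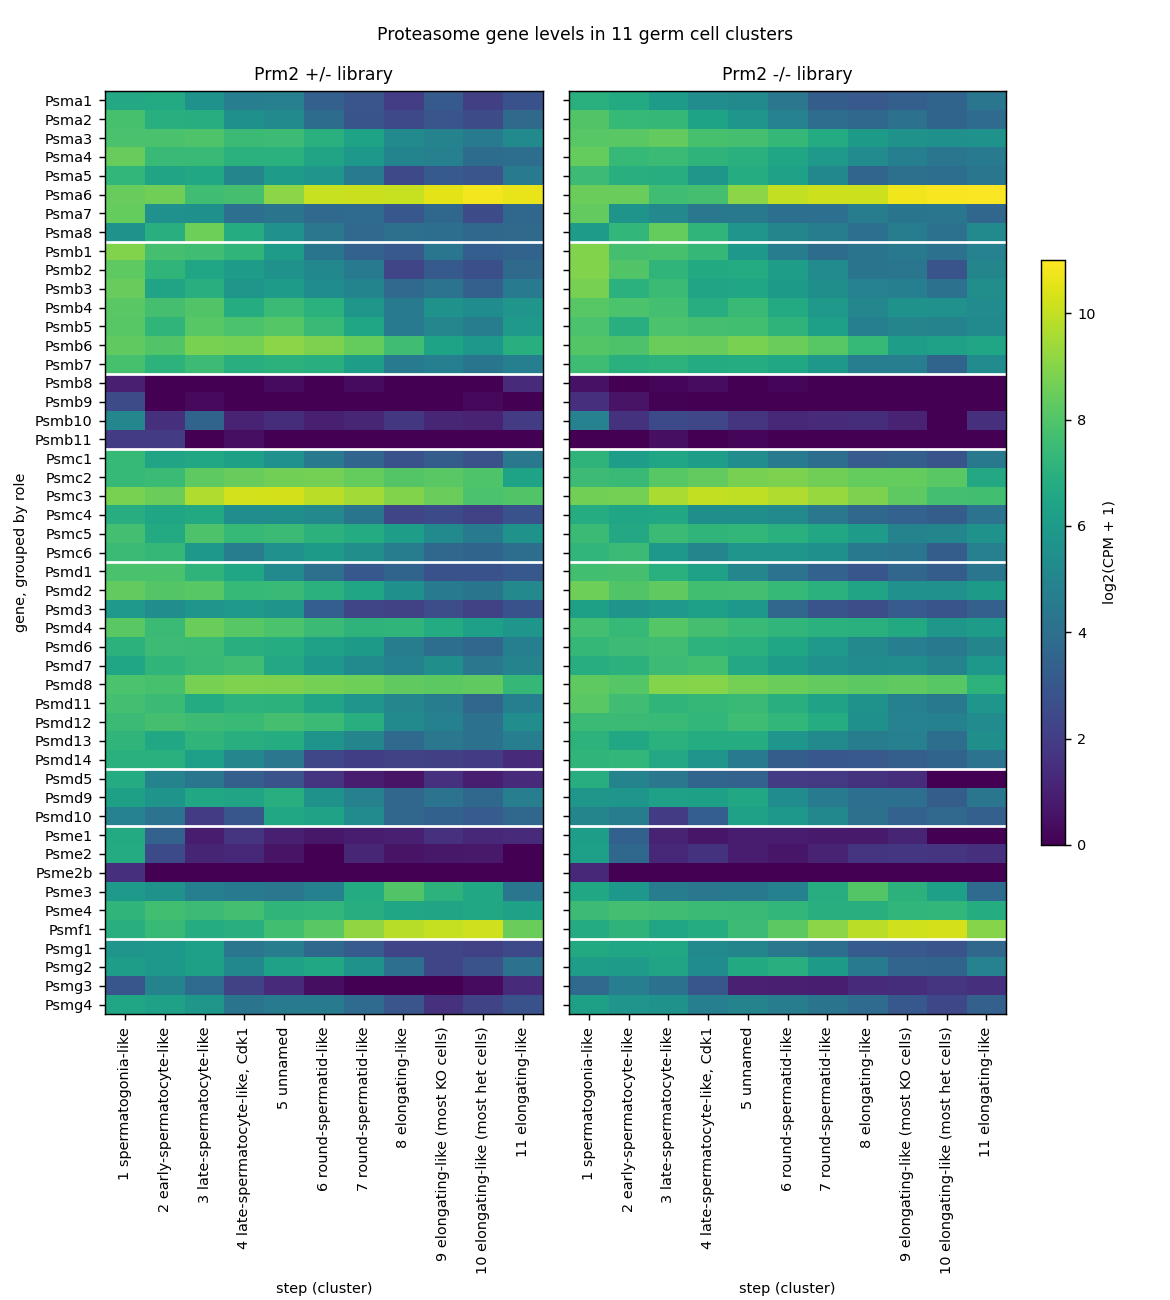
Levels of the 49 proteasome genes as log2(CPM + 1) (colour) in 11 germ cell clusters in developmental order (columns), with the heterozygous library on the left and the knockout library on the right; rows are grouped by role with white lines between groups. Most rows are brightest in steps 1 to 5, whereas Psma6 and Psmf1 are brightest in steps 8 to 11 and Psmb8, Psmb9, Psmb11 and Psme2b stay near 0.

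Taken by whole cell classes, a gene was counted where it stood at 50 CPM or more in either class with at least 100 UMIs, and was called where it differed at least 2-fold in the same direction in both libraries. From spermatogonia-like to late-spermatocyte-like cells 42 of the 49 could be compared, and 2 were at least 2-fold higher and 12 lower in the later class, against 24.5% and 29.0% of the 5261 genes compared. The 2 higher were Psma8 and the ATPase Psmc3, and the lower ones were Psma1, Psma2, Psma4, Psma7, Psmb1, Psmb2, Psmb3, Psmc6, Psmd5, Psme1, Psme2 and Psme3. From late-spermatocyte-like to round-spermatid-like cells 33 were compared, 2 were higher (Psma6 and Psmf1) and 11 lower, against 26.5% and 26.2% of 4701 genes. Psma8, Psmb1, Psmb2 and the deubiquitinase Psmd14, which removes ubiquitin chains at the entrance, were among the lower. From round-spermatid-like to elongating-spermatid-like cells 23 were compared, 2 were higher (Psme3 and Psmf1) and 15 lower, against 11.2% and 44.8% of 3664 genes. The median log2 difference of the members compared, heterozygous before knockout, was -0.57 and -0.59 at the first of these passages (all genes -0.15 and -0.18). It was -0.77 and -0.95 at the next (all genes -0.26 and -0.31) and -2.07 and -1.38 at the last (all genes -1.31 and -0.83). CPM are shares, so a gene is lower in elongating-spermatid-like cells also where other RNA takes a larger share: Prm1 alone was 86919 and 64111 CPM there. Fewer transcripts per cell and a larger share of other transcripts cannot be told apart.

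Among the alpha subunits, Psma7 was high in step 1 and low from step 2 on, and Psma8 was highest in step 3. Psma7 (ENSMUSG00000027566, chromosome 2 from 180036374 to 180042433, minus strand) encodes the standard subunit of its ring position and Psma8 (ENSMUSG00000036743, chromosome 18 from 14706151 to 14762301, plus strand) the testis form; positions are those of GENCODE M21 on mm10. Psma7 stood at 339 CPM (304 to 376) and 329.98 CPM (306 to 355) in step 1, 46.9 and 51 CPM in step 2 and 45 and 35.2 CPM in step 3. It lay between 4.70 and 23.6 CPM in steps 4 to 11 of both libraries. Psma8 stood at 49.9 CPM (37.3 to 65.4) and 63.8 CPM (53.6 to 75.3) in step 1 and 119.6 and 156 CPM in step 2. It peaked in step 3 of both libraries, at 375 CPM (362 to 387) and 335 CPM (326 to 344). It stood at 109.9 and 146 CPM in step 4, 47 and 54.4 CPM in step 5 and no more than 36.1 CPM from step 6 on. Steps 1 and 3 thus lay 7.52-fold and 9.36-fold apart for Psma7 (higher in step 1) and 7.51-fold and 5.25-fold apart for Psma8 (higher in step 3). Most of the Psma7 difference lay between steps 1 and 2 (7.22-fold and 6.47-fold), the step before Psma8 was highest. Psma8 made up 12.8% (9.74 to 16.5%) of 405 UMIs and 16.2% (13.8 to 18.9%) of 852 UMIs of the pair in step 1 and 71.8% and 75.3% in step 2. The share was 89.3% (88.3 to 90.2%) of 3888 UMIs and 90.5% (89.7 to 91.2%) of 6220 UMIs in step 3 and 87.9% and 87.8% in step 4. In steps 6 to 11 both genes were low and the share lay between 38.8 and 76%, with intervals as wide as 27.8 to 77%.

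**Figure D2:**
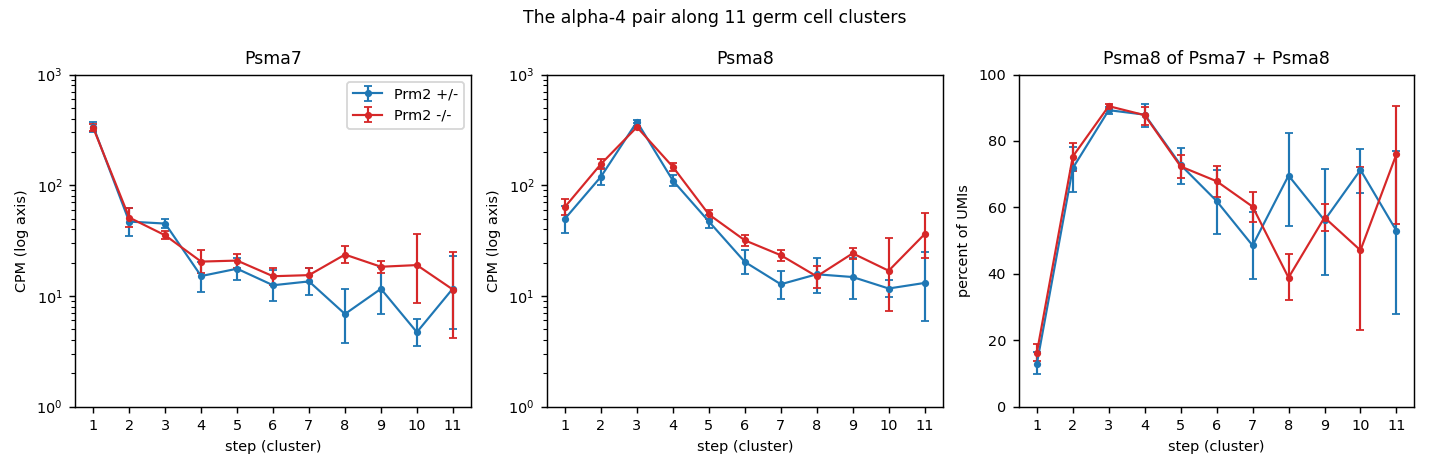
Psma7 (left) and Psma8 (middle) in CPM on log axes and the share of Psma8 in the UMIs of both genes in percent (right) for the 11 steps, in the Prm2 +/- (blue) and Prm2 -/- (red) library; points are values of the summed cells and bars are 95% counting intervals. Psma7 is highest in step 1 and Psma8 in step 3, where its share is 89.3% and 90.5%, and the 2 libraries follow the same course up to step 7.

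By class, Psma8 stood at 225 and 254 CPM in late-spermatocyte-like, 149 and 216 CPM in early-spermatocyte-like, 49.9 and 63.8 CPM in spermatogonia-like, 29.99 and 34 CPM in round- and 12.5 and 21.9 CPM in elongating-spermatid-like cells. Its level was 45.4 and 73.3 CPM in Sertoli-like and 37.5 and 48.3 CPM in Leydig-like cells, which should lack it. Both were above the level in spermatids, so by CPM Psma8 in spermatids was not above this background. In spermatogonia-like cells Psma8 was close to the Sertoli-like level and higher than the Leydig-like level. Sertoli-like cells were shallower and held more Prm1 than spermatogonia-like cells (23440 and 7874 against 8122 and 4059 CPM). Whether Psma8 in spermatogonia-like cells lay above background thus cannot be told. The order late spermatocyte, early spermatocyte, then the rest held in both libraries. In each library the intervals of Sertoli-like and spermatogonia-like cells overlapped (35.7 to 56.9 against 37.3 to 65.4 CPM, and 62 to 86.2 against 53.6 to 75.3 CPM). With every cell thinned to 2000 UMIs and shallower cells left out, a Psma8 UMI was seen in 29.4% (427 of 1452 cells, 27.1 to 31.8%) and 36.5% (872 of 2390, 34.5 to 38.5%) of late-spermatocyte-like cells. A Psma8 UMI was seen in 7.43% and 10.55% of spermatogonia-like cells. The shares were 5.73% and 6.28% of round-spermatid-like, 2.22% and 5.26% of elongating-spermatid-like, 7.69% and 10.2% of Sertoli-like and 3.94% and 5.29% of Leydig-like cells. Thinning left out 855 and 1337 late-spermatocyte-like and 1127 and 538 Sertoli-like cells. Without thinning 42.7% and 49.7% of late-spermatocyte-like and 5.55% and 13.1% of Sertoli-like cells held a Psma8 UMI, at median depths of 5339 and 4696 UMIs and of 954 and 1546 UMIs. Psma7 was the reverse in somatic cells, at 286 and 280.4 CPM in Sertoli-like and 339.7 and 426 CPM in Leydig-like cells, which produce testosterone, so that Psma8 made up only 9.95% and 10.2% of the pair in the latter. Across 8 classes in 2 libraries, the 5 genes with the course most like Psma8 among 6876 genes were Pcgf6 (0.97), Ptpn20 (0.96), Cc2d2b (0.96), Tcam1 (0.95) and Dnah14 (0.95) by Pearson correlation of log2(CPM + 1). The points share libraries and cells, so these values are descriptions.

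Psma6 (ENSMUSG00000021024, chromosome 12 from 55384222 to 55418454, plus strand) differed from the rest of the alpha ring in that it was higher in spermatids than in spermatogonia-like cells. It stood at 345 and 369 CPM in step 1 and 197 and 198 CPM in step 3. From there it stood at 546 and 547 CPM in step 5, 1093 and 1029 CPM in step 6 and 1068 and 1144 CPM in step 8. Step 10 held 1776 CPM (1752 to 1800.4) and 1917 CPM (1794 to 2045), 9.02-fold and 9.67-fold higher than in step 3. In elongating-spermatid-like cells it was the highest of the 49 genes at 1649.5 and 1606 CPM, while the next alpha subunit, Psma3, stood at 25.3 and 52.6 CPM. Its level in Sertoli-like cells was 791 and 475 CPM, and there it was lower in the knockout library along with Prm1; how much of it came from RNA of other cells was not tested. The 5 genes most like Psma6, a comparison added after its level was seen, were Asb17 (0.98), Ccdc54 (0.98), Fam71a (0.98), Spata20 (0.98) and Fndc8 (0.98). The other alpha subunits stood far lower than Psma6 in step 8. Psma1, Psma2, Psma4 and Psma5 were at 99.8, 219.7, 346 and 156 CPM in step 1 and 2.94, 4.41, 29.9 and 4.41 CPM in step 8 of the heterozygous library, and at 125, 258, 335 and 183 against 7.31, 11.6, 38.4 and 11.1 CPM in the knockout library. Psma3 was highest in step 3 in both, at 252 and 327 CPM. Psma2 overlaps AW209491 on the same strand and Psma3 overlaps 3110056K07Rik on the other, so their counts may hold reads of these neighbours.

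The upstream sequences of the members with contrasting courses are shown because most of the family was lower in later steps while Psma6, Psmf1 and Psme3 were higher, Psma7 was lower from step 2 on and the X-linked Psmd10 was lowest in step 3. RefSeq windows (GRCm38.p6) of 250 bases before a start site were matched by symbol for 41 of the 49 genes, and Psma8, Psmb1, Psmb2, Psmb7, Psmc3, Psmd3, Psmd7 and Psmg2 were not among them. Psma6 has 2 start sites in that table, chr12:55383972-55384221, plus strand (A) and chr12:55398575-55398774, plus strand (B) being the stretches printed, and counts at the 3' end cannot tell which of them was used. The others are Psmf1 (chr2:151741311-151741560, minus strand), Psme3 (chr11:101315963-101316212, plus strand), Psma7 (chr2:180042465-180042508, minus strand) and Psmd10 (chrX:140956729-140956906, minus strand). Each is written 5′ to 3′ on the strand of its gene and cut to the part outside annotated exons. Capitals mark matches on either strand to CCAAT (read as ATTGG from the other strand), to GGGCGG, to TGACGTCA, to TGACNNNGC and to CAGTTG; the motifs do not overlap one another in these stretches.
Psma6 A: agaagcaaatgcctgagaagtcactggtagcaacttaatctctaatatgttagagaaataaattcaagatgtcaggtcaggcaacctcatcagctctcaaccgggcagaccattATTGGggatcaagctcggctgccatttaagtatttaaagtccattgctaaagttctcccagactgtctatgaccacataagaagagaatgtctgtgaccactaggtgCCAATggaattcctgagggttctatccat
Psma6 B: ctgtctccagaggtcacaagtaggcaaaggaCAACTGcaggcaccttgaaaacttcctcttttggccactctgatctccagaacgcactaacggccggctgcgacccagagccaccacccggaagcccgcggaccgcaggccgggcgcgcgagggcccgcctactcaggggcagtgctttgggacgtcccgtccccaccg
Psmf1: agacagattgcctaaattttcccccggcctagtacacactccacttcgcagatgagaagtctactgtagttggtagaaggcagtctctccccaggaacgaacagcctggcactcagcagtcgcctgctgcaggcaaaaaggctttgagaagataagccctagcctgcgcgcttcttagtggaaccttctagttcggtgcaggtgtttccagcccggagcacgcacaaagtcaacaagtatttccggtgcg
Psme3: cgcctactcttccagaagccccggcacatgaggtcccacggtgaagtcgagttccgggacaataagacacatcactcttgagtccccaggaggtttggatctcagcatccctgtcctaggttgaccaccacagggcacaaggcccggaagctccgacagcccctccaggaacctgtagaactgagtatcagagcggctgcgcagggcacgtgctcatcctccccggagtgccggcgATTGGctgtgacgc
Psma7: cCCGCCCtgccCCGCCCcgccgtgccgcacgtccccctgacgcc
Psmd10: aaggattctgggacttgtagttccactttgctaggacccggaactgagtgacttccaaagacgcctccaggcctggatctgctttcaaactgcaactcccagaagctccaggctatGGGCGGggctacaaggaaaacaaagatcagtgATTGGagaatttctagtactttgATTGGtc
Window A of Psma6 is 42.8% G and C, with CCAAT 29 bases before the start and again, on the other strand, 136 bases before it, whereas window B is 65% and holds CAGTTG on the other strand (CAACTG). Psme3 and Psmd10 hold CCAAT on the other strand, 14 bases before the start in Psme3 and 47 and 24 bases before it in Psmd10. The Psma7 stretch, 86.4% G and C over 44 bases, holds GGGCGG on the other strand (CCGCCC) 43 and 33 bases before the start, and Psmd10 holds it on its own strand 79 bases before. The Psmf1 window holds none of the motifs. It lies inside the GENCODE M21 span of the gene, whose 5′ end is at 151744186. Counts at the 3' end cannot tell which Psmf1 start was used. In full windows CCAAT was found in 14 of 44 windows of members (31.8%) against 33.8% of all 32851. GGGCGG was found in 23 (52.3% against 32.7%). Windows of members were also richer in G and C (median 57.4% against 52.4%), and the part of this in the GGGCGG share was not tested. TGACNNNGC, the core of the site used by the proteasome gene activator Nfe2l1, was found in 5 (11.4% against 10.2%). CAGTTG was found in 7 (15.9% against 11.1%) and TGACGTCA in none (1.55% of all). A match is a run of letters and not a binding site, and some windows overlap other genes.

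Among the beta subunits, Psmb5 and Psmb6 stood in step 3 at or above their step 1 levels, although Psmb5 was 1.95-fold and 1.91-fold lower in step 2 between them. Psmb6, with the caspase-like site, stood at 318 and 267 CPM in step 1, 438 and 365 CPM in step 3 and 544 and 444 CPM in step 5, its peak, and at 57.8 and 78 CPM in step 10. Psmb5, with the chymotrypsin-like site, stood at 285 and 232 CPM in step 1, 285 and 239 CPM in step 3, 170.2 and 142 CPM in step 6 and 21.5 and 26.1 CPM in step 8. Psmb7, with the trypsin-like site, stood at 223 and 189 CPM, 187 and 138 CPM, 123 and 94.1 CPM and 23 and 24.9 CPM in the same steps. The non-catalytic Psmb1, Psmb2 and Psmb3 were, like Psmb4 and Psmb7, highest in step 1, at 485 and 484 CPM, 306 and 476 CPM and 350.2 and 423 CPM, and stood at 213 and 213 CPM, 144 and 258 CPM and 85.5 and 129 CPM in step 2. Psmb6 had the highest and Psmb2 the lowest mean log2 level of the 7 over the germ cell classes. Psmb4, a structural subunit, stood at 294 and 279 CPM in step 1, 255 and 208 CPM in step 3 and 22 and 32.8 CPM in step 8.

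Immunoproteasome subunits replace the catalytic ones in immune cells and after interferon, and germ cells held almost no Psmb8 or Psmb9 RNA. Psmb8, the counterpart of Psmb5, had 2 and 4 UMIs in late-spermatocyte-like cells, 0.0414% (0.00501 to 0.149%) of 4836 UMIs and 0.0688% (0.0187 to 0.176%) of 5815 UMIs of the pair, and 2 and 3 UMIs in round-spermatid-like cells. Psmb9, the counterpart of Psmb6, had 0 of 6748 and 0 of 9601 UMIs of its pair in round-spermatid-like cells, which allows a share of up to 0.0445% and 0.0312%. In macrophage-like cells Psmb8 made up 61.5% (44.6 to 76.6%) of 39 UMIs and 42.9% (28.8 to 57.8%) of 49 UMIs and Psmb9 40% (19.1 to 64%) of 20 UMIs and 12.2% (5.71 to 21.8%) of 74 UMIs of their pairs. In Leydig-like cells the shares were 7.0% and 5.26% and 3.36% and 2.28%. Psmb10, the counterpart of Psmb7, differed in that spermatogonia-like cells had it too, at 33.6 and 28.2 CPM. It made up 13.1% (9.30 to 17.8%) of 267 UMIs and 13% (10.1 to 16.4%) of 470 UMIs of the pair there, against 1.98% and 2.03% in early-spermatocyte-like and 1.49% and 1.62% in round-spermatid-like cells. The share was 4.08% and 3.04% in late-spermatocyte-like, 6.21% and 4.89% in elongating-spermatid-like, 12.9% and 7.63% in Sertoli-like and 27.4% and 16.9% in Leydig-like cells. The macrophage markers together stood at 7.68 and 5.55 CPM in spermatogonia-like cells, against 11789 and 10038 CPM in macrophage-like cells, with 4 and 3 of 8 at 0. Psmb11, the thymus form, had 15 and 20 UMIs in all barcodes of the libraries. Psmb9 overlaps Tap1 on the other strand, and whether counting used strand is not given in the sources used here, so reads of such neighbours cannot be told apart.

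**Figure D3:**
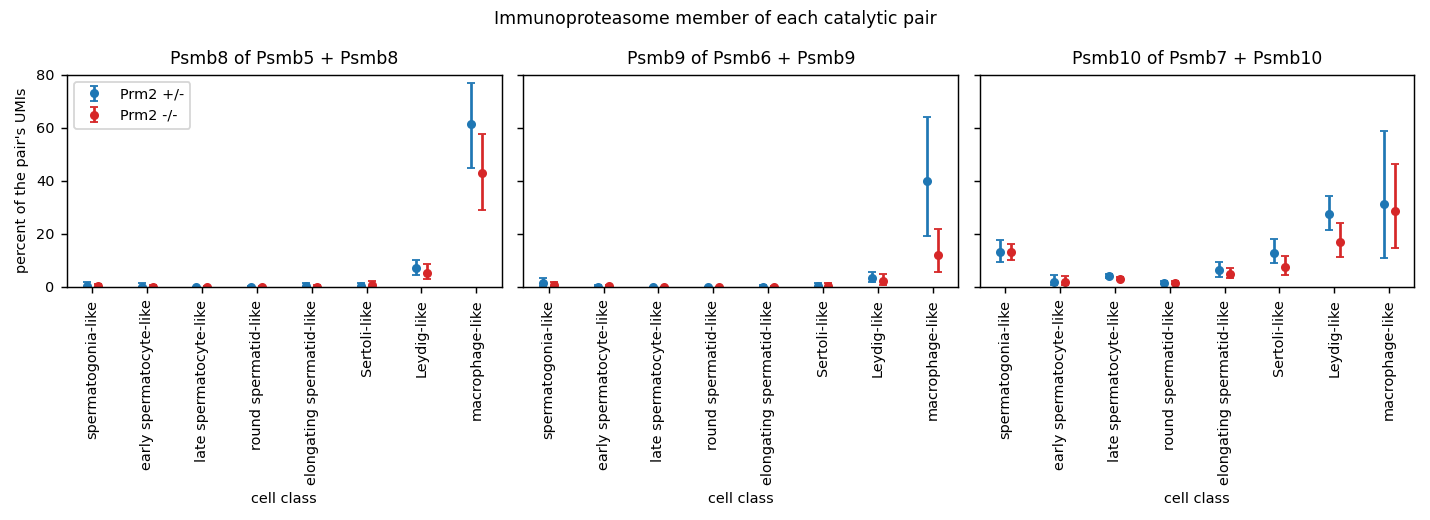
Share of the immunoproteasome subunit in the UMIs of each catalytic pair, in percent, by cell class in the Prm2 +/- (blue) and Prm2 -/- (red) library, with 95% Clopper-Pearson intervals. Psmb8 and Psmb9 shares lie near 0 in all germ cell classes and are highest in macrophage-like cells, while Psmb10 is also seen in spermatogonia-like cells (13.1% and 13%).

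The ATPases of the regulatory particle, which unfold the substrate, split into high and low members. Psmc3 (ENSMUSG00000002102, chromosome 2 from 91054009 to 91066369, plus strand) was the highest, at 447 and 400.2 CPM in step 1 and 827 and 783 CPM in step 3. It reached 1228 and 1013 CPM in step 4, 1243 and 986 CPM in step 5 and 239 and 209 CPM in step 10. Psmc2 stood at 163 and 183 CPM in step 1 and was highest in step 6 at 411 and 452 CPM. It kept 249.7 and 287 CPM in step 10, 1.53 and 1.57 times its step 1 level, and stood lower in step 11 at 81.4 and 98.9 CPM. Psmc1 and Psmc4 were highest in step 1 and Psmc6 in step 1 or 2. They stood at 5.88 and 8.06 CPM, 3.92 and 11.8 CPM and 23.5 and 20.6 CPM in step 8. Psmc5 stood at 207 and 181 CPM in step 1 and 68.6 and 63.9 CPM in step 8. These 6 proteins form 1 ring in equal numbers, and in step 8 their RNA levels ranged from 3.92 to 476 CPM in the heterozygous and 8.06 to 449.8 CPM in the knockout library.

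Among the 11 non-ATPase subunits, the lid subunit Psmd8 had the highest and Psmd3, a lid scaffold subunit, the lowest mean log2 level over the germ cell classes. Psmd8 stood at 235 and 308 CPM in step 1, 474 and 518 CPM in step 4 and 314 and 280.4 CPM in step 10. Psmd4, a receptor for ubiquitin chains, stood at 289 and 209.8 CPM in step 1, 366 and 270.3 CPM in step 3, its peak, and 73.6 and 54.8 CPM in step 10. The deubiquitinase Psmd14 was at 126 and 147 CPM in step 1 and 127 and 154 CPM in step 2 and at 4.05 and 8.36 CPM in step 6. Psmd1, the largest scaffold of the base, was at 231 and 205 CPM and then 15.6 and 17.1 CPM, and Psmd3 at 61.4 and 74.9 CPM and then 8.73 and 11.2 CPM in steps 1 and 6. Psmd2, the other base scaffold, kept 131 and 166 CPM in step 6. In step 6, Psmd1, Psmd3 and Psmd14 were thus the only ones of the 17 ATPase and non-ATPase subunits under 20 CPM in both libraries, while Psmd8 stood at 417 and 368 CPM. The remaining lid subunits Psmd6, Psmd7, Psmd11, Psmd12 and Psmd13 stood at 134 and 158 CPM, 91.1 and 115 CPM, 206 and 286 CPM, 182 and 179 CPM and 146 and 137 CPM in step 1. In step 6 they stood at 76.4 and 89.8 CPM, 57.7 and 67.6 CPM, 85.4 and 117 CPM, 179 and 154 CPM and 50.8 and 53.6 CPM, and in step 10 at 11.6 and 21.1 CPM, 20.2 and 29.5 CPM, 11.4 and 21.1 CPM, 16.6 and 27.4 CPM and 16.9 and 14.8 CPM. Of the chaperones that assemble the base, Psmd10 (ENSMUSG00000031429, chromosome X from 140948429 to 140956728, minus strand), also known as gankyrin, had a course of its own. It stood at 28.8 CPM (19.4 to 41.1) and 31.4 CPM (24.4 to 39.8) in step 1. In step 3 it was at 2.91 CPM (1.92 to 4.24) and 2.92 CPM (2.16 to 3.86), from 27 and 49 UMIs. It then stood at 91.6 CPM (82.6 to 101) and 77.5 CPM (71.8 to 83.5) in step 5 and 11.3 and 15.9 CPM in step 8. Step 5 was 31.4-fold and 26.6-fold above step 3. The X chromosome, on which it lies, is silenced during male meiosis as a matter of textbook knowledge; no other of the 49 genes is X-linked, so this cannot be compared within the family. Psmd5 stood at 108 and 114 CPM in step 1 and 2.18 and 2.87 CPM in step 6, and Psmd9 was highest in step 5 at 118 and 95.7 CPM. Of the core chaperones, Psmg2 was highest in step 6 at 92.9 and 118 CPM and Psmg4 in step 1 at 89.2 and 75.3 CPM. Psmg1 stood at 51.8 and 103 CPM in step 1 and 11.8 and 20.1 CPM in step 6, and Psmg3 did not exceed 29.4 CPM in any step.

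Psme4 held the largest share of the activators in steps 1 to 6 and in steps 10 and 11, and Psme3 in step 8. In steps 7 and 10 the heterozygous intervals of both overlapped, as did those of the knockout in step 7, and in step 9 Psme3 led in the heterozygous and Psme4 in the knockout library. Psme1 and Psme2, which together form the interferon-inducible PA28 cap, stood at 106 and 71.6 CPM and 106 and 72.1 CPM in step 1 and at 0.864 and 1.07 CPM and 1.19 and 1.37 CPM in step 3. Among the classes Leydig-like cells had the highest levels, where Psme1 was at 264 and 276 CPM and Psme2 at 126 and 155 CPM, while Sertoli-like cells had 8.47 and 11 CPM and 51.4 and 37.9 CPM. Psme2b had 5 and 7 UMIs in all; it resembles Psme2, and reads of near-identical copies can be split by the counting. Psme3 (ENSMUSG00000078652, chromosome 11 from 101316213 to 101323537, plus strand) encodes the nuclear activator. It stood at 61.4 and 91.5 CPM in step 1, 19.5 and 20.9 CPM in step 5 and 107 and 113 CPM in step 7. Its peak was 258 CPM (236 to 281) and 262 CPM (248 to 276) in step 8, and step 11 held 18.9 and 13.3 CPM. Psme4 (ENSMUSG00000040850, chromosome 11 from 30771726 to 30880361, plus strand) had the flattest course of the activators, from 78.5 to 210.05 CPM over the 11 steps in the heterozygous and 110.3 to 210.2 CPM in the knockout library. Of the UMIs of Psme1 to Psme4, Psme4 made up 87% (85.5 to 88.5%) of 1991 UMIs and 88% (87 to 89%) of 3777 UMIs in step 3 and 84.8% and 84.6% in step 6. In step 8 Psme3 made up 74.7% (71.3 to 77.8%) of 706 UMIs and 68.4% (66.3 to 70.4%) of 2044 UMIs and Psme4 24.9% and 30.8%. In step 1 all 4 contributed, with Psme1 at 25.2% and 17%, Psme2 at 25.5% and 17.1%, Psme3 at 14.7% and 21.7% and Psme4 at 34.6% and 44.2%. Psmf1 (ENSMUSG00000032869, chromosome 2 from 151715812 to 151744186, minus strand), the inhibitor PI31, also helps to transport and assemble proteasomes. It stood at 122 and 109 CPM in step 1, 202 and 185 CPM in step 5 and 578 and 545 CPM in step 7. Step 10 held 1165 CPM (1145 to 1185) and 1267 CPM (1168 to 1373), 9.56-fold and 11.7-fold above step 1. In step 11 it stood at 359 and 504 CPM, while Psma6 there was at 1604 and 1973 CPM. A Psme4 UMI was seen in 33.5% (486 of 1452 cells, 31 to 36%) and 33.7% (805 of 2390, 31.8 to 35.6%) of late-spermatocyte-like cells thinned to 2000 UMIs. The shares were 32.8% and 30.6% of round- and 18.1% and 24.9% of elongating-spermatid-like cells, and 17.9% and 30.5% of Sertoli-like cells. The 5 genes with the course most like Psme4 over the same 16 points were Kdm2b (0.93), Cdk17 (0.91), Tex2 (0.91), Trim41 (0.91) and Ncoa5 (0.91).

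**Figure D4:**
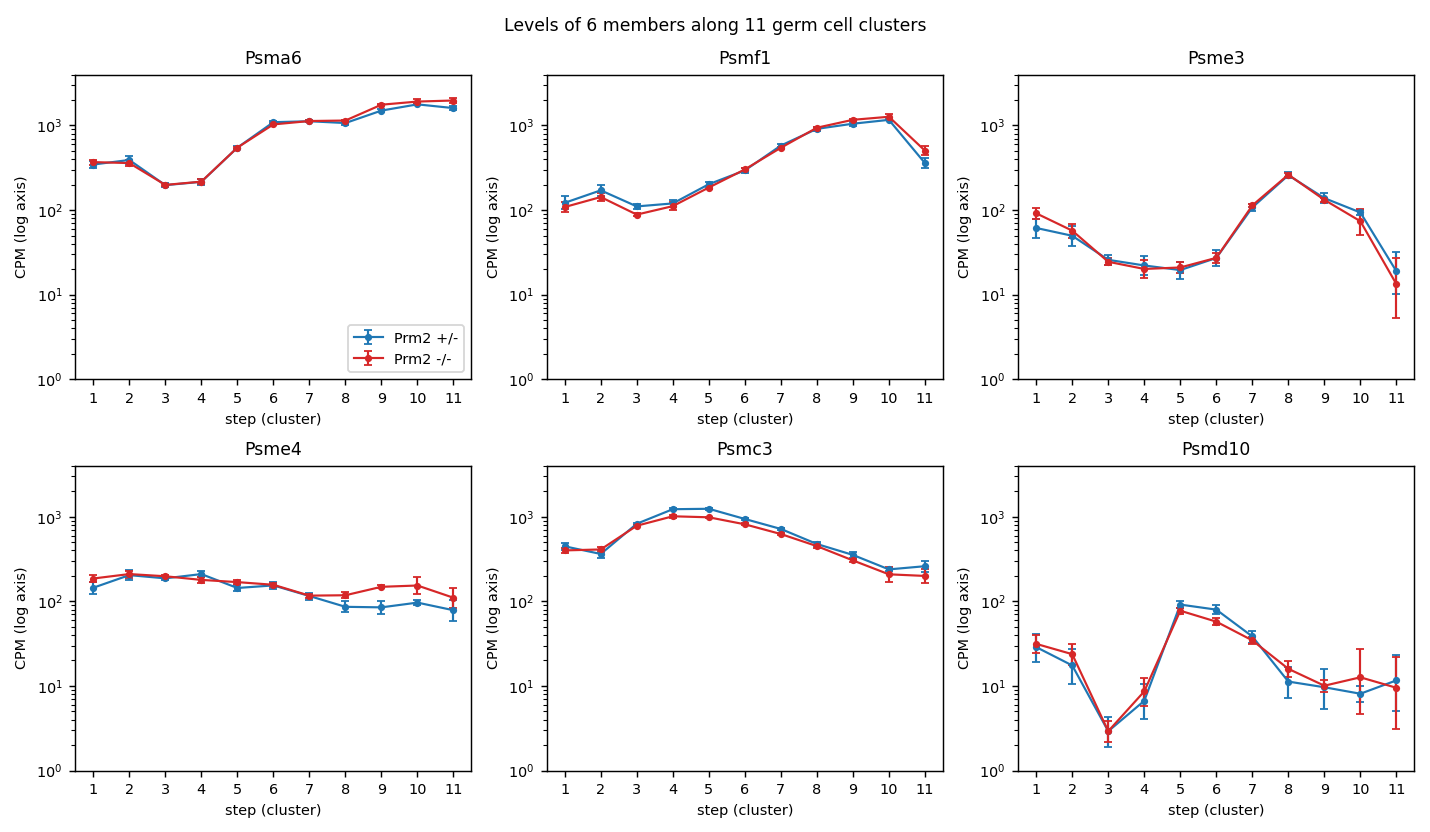
Psma6, Psmf1, Psme3, Psme4, Psmc3 and Psmd10 in CPM on log axes over the 11 steps in the Prm2 +/- (blue) and Prm2 -/- (red) library, with 95% Poisson intervals of the counts. Psma6 and Psmf1 are highest in the elongating steps, Psme3 in step 8, Psmc3 in steps 4 and 5, and Psmd10 is lowest in step 3.

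Between the libraries, few proteasome genes differed by 2-fold in any class, and Psmb2 had the highest ratio of knockout over heterozygous in 4 of 6 classes. A gene was compared where it had at least 50 CPM in either library and at least 100 UMIs over both. The 2-fold limit sorts by size and tests nothing. In spermatogonia-like cells 42 of the 49 were compared and 0 differed 2-fold, against 3.01% of all genes compared. In early-spermatocyte-like cells it was 0 of 34 (7.64% of all genes), in late-spermatocyte-like cells 0 of 36 (1.17%) and in round-spermatid-like cells 0 of 27 (1.85%). In elongating-spermatid-like cells 2 of 11 differed 2-fold, Psmd2 and Psma3, both higher in the knockout, against 8.72% of all genes, and in Sertoli-like cells 2 of 34, Psmb2 and Psmd1, also higher, against 23.4%. The median log2 ratio of knockout over heterozygous, with the median of all genes compared in parentheses, was -0.0046 (0.033) in spermatogonia-like, 0.12 (0.11) in early-spermatocyte-like, 0.14 (-0.0018) in late-spermatocyte-like, -0.069 (0.0019) in round-spermatid-like, 0.31 (0.26) in elongating-spermatid-like and 0.047 (0.17) in Sertoli-like cells. TMM, a scaling that assumes most genes alike, shifts every ratio by -0.53 in elongating-spermatid-like and -0.23 in Sertoli-like cells and by less than 0.1 in the other classes. With it 3 and not 10 of the 11 genes were above 0 in elongating-spermatid-like cells, so a common direction there depends on scaling; in Sertoli-like cells it was 15 and not 19 of 34. Only 10 of the 49 could be compared in all 6 classes, and of these Psma3 and Psmd2 were higher in the knockout in each class by CPM and none was lower in each.

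Psmb2, a non-catalytic beta subunit (ENSMUSG00000028837, chromosome 4 from 126677630 to 126709714, plus strand), stood at 306 and 476 CPM in spermatogonia-like, 76.8 and 146 CPM in early-spermatocyte-like, 73.1 and 131 CPM in late-spermatocyte-like and 36.1 and 58.1 CPM in round-spermatid-like cells (Prm2 +/- before Prm2 -/-). The counting intervals of the 2 libraries did not overlap in any of these classes. The log2 ratios were 0.64 (0.46 to 0.82), 0.92 (0.69 to 1.16), 0.84 (0.75 to 0.93) and 0.69 (0.55 to 0.82), and 1.15 (0.84 to 1.48) in Sertoli-like cells, where the levels were 68.4 and 152 CPM. In Leydig-like cells, outside the compared classes, it stood at 160.2 and 331 CPM. Within single steps the ratio was 0.64 in step 1, 0.76 in step 3, 1.10 in step 5 and 0.86 in step 7, each with an interval above 0. In the stromal and myoid cluster it stood at 121 and 125 CPM. The gene was thus higher in the knockout library in these 4 germ cell classes and in Sertoli- and Leydig-like cells, and whether this comes from the genotype, the animals or the library cannot be told apart with 1 library of each. Other members with a higher knockout level in late-spermatocyte-like cells were Psmb3 at 0.79, Psma2 at 0.74, Psma1 at 0.66 and Psmg1 at 0.60 (core subunits and, for Psmg1, a chaperone of the core). The lowest were Psmc5 at -0.33, Psmd4 at -0.32, Psmf1 at -0.29, Psmb7 at -0.27 and Psmc3 at -0.26. In round-spermatid-like cells the highest after Psmb2 were Psme3 at 0.47, Psmb3 at 0.37, Psmd11 at 0.31 and Psmd2 at 0.23, and the lowest Psmd9 at -0.63, Psmb5 at -0.53, Psmb7 at -0.41, Psmd10 at -0.41 and Psmb4 at -0.40. This class holds 322 heterozygous and 950 knockout cells of step 6 and 325 and 1257 of step 7 beside shallower clusters, so the libraries fill it differently. Within steps 6 and 7 Psmd9 stood at -0.32 and -0.21, Psmb5 at -0.27 and -0.28 and Psmb7 at -0.39 and -0.32. Psmd10 stood at -0.47 and -0.15 and Psmb4 at -0.31 and 0.066. The step 7 intervals of Psmd9, Psmd10 and Psmb4 include 0. In the same steps Psmb3 stood at 0.65 and 0.51, Psmd11 at 0.45 and 0.62 and Psmd2 at 0.34 and 0.51. Psme3 stood at 0.0053 in step 6 and 0.079 in step 7 alone, both with intervals that include 0, and at -0.38 in the class with each library clustered on its own. The catalytic subunits Psmb5, Psmb6 and Psmb7 stood at 258 and 225 CPM, 422 and 354 CPM and 149 and 124 CPM in late-spermatocyte-like cells, lower in the knockout by log2 ratios of -0.20 (-0.25 to -0.14), -0.25 (-0.30 to -0.21) and -0.27 (-0.35 to -0.20). In round-spermatid-like cells the ratios were -0.53, -0.31 and -0.41, and within steps 6 and 7 they lay between -0.39 and -0.26. These differences were under 1.5-fold.

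**Figure D5:**
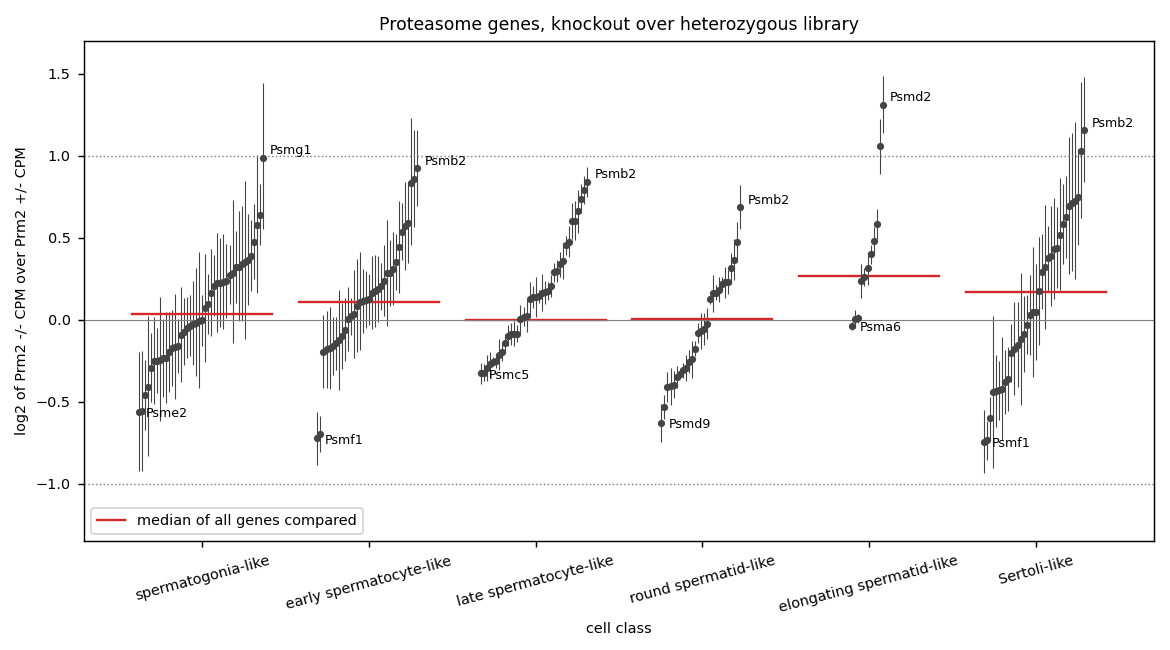
Log2 of knockout CPM over heterozygous CPM for each proteasome gene compared in 6 cell classes, sorted within each class, with 95% counting intervals; red lines are the medians of all genes compared, dotted lines are 2-fold, and the lowest and highest gene of each class is named. All genes in the spermatogonia-, early-spermatocyte-, late-spermatocyte- and round-spermatid-like classes lie between the dotted lines, and Psmb2 is the highest in 4 classes.

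In spermatogonia-like cells the highest ratios were Psmg1 at 0.99, Psmb2 at 0.64, Psme3 at 0.58, Psmd11 at 0.47 and Psmd8 at 0.39. The lowest were Psme2 at -0.56, Psme1 at -0.56, Psmd4 at -0.46, Psmd9 at -0.41 and Psmb5 at -0.29. Psme1 and Psme2, the 2 subunits of the same activator, stood at 106 and 71.6 CPM and 106 and 72.1 CPM there. The intervals of both ratios lay below 0. In this class the spermatogonia markers together stood at 1547.5 and 1322.7 CPM and the late spermatocyte markers at 403 and 812 CPM. By these markers the class was not matched between libraries, and the part of this in the ratios was not tested. In early-spermatocyte-like cells the highest were Psmb2 at 0.92, Psmb3 at 0.86, Psmg1 at 0.84, Psmd14 at 0.59 and Psma2 at 0.57. The lowest were Psmf1 at -0.72, Psma6 at -0.70, Psmb5 at -0.20, Psmb7 at -0.18 and Psmc5 at -0.17. This class holds 521 heterozygous and 1108 knockout cells of a shallow cluster beside the cells of step 2, and in step 2 alone Psmf1 and Psma6 stood at -0.26 and -0.12, both with intervals that include 0. In the whole class Prm1 was 14573 and 4773 CPM, so the lower Psma6 and Psmf1 of the knockout went with lower spermatid RNA; its part in the result was not tested. In elongating-spermatid-like cells the highest were Psmd2 at 1.31, Psma3 at 1.06, Psme4 at 0.58, Psme3 at 0.48 and Psmc2 at 0.40. The lowest were Psma6 at -0.038, Psmd8 at 0.0028, Psmf1 at 0.0085, Psmb6 at 0.24 and Psmc3 at 0.26. Psmd2 stood at 22.8 and 56.5 CPM and Psma3 at 25.3 and 52.6 CPM, and within step 8, which both libraries share, the ratios were 0.90 (0.57 to 1.23) and 0.73 (0.37 to 1.11). In Sertoli-like cells the highest were Psmb2 at 1.15, Psmd1 at 1.03, Psma2 at 0.75, Psma1 at 0.72 and Psmd14 at 0.71. The lowest were Psmf1 at -0.74, Psma6 at -0.74, Psmc3 at -0.60, Psme2 at -0.44 and Psmb5 at -0.44, again with Psma6 and Psmf1 lowest where Prm1 was lower. This class sums a shallow cluster of 1224 heterozygous and 681 knockout cells and a deeper one of 20 and 182 cells, so the libraries fill it differently. In the deeper cluster Psma6 stood at 299 and 318 CPM, Psmf1 at 175 and 85.3 CPM and Psmb2 at 91 and 132 CPM. Psma8 had a log2 ratio of 0.17 (0.12 to 0.23) in late-spermatocyte-like cells by class, and Psma8 made up 88.3% (87.4 to 89.2%) of 4774 UMIs and 89.4% (88.6 to 90.1%) of 7340 UMIs of its pair. In step 3 alone Psma8 stood at 375 and 335 CPM, lower in the knockout, so the direction depends on which cells are summed. Psme4 had ratios of 0.019 (-0.041 to 0.079) in late-spermatocyte-like, -0.083 (-0.14 to -0.021) in round- and 0.58 (0.49 to 0.67) in elongating-spermatid-like cells, the last of which is 0.056 under TMM. Psme3 stood at 0.48 (0.40 to 0.56) in the whole elongating-spermatid-like class, but at 0.022, -0.067 and -0.34 within steps 8, 9 and 10, each with an interval that includes 0, and at -0.046 for the class under TMM. Psma6 stood at -0.038 (-0.062 to -0.015) and Psmf1 at 0.0085 (-0.020 to 0.037) in elongating-spermatid-like cells. Within steps 8, 9 and 10 and the last step Psma6 stood at 0.099, 0.23, 0.11 and 0.30, each with an interval above 0. The direction of Psma6 thus depends on which cells are summed. In the same steps Psmf1 stood at 0.044, 0.15, 0.12 and 0.49, with an interval that includes 0 in step 8 only. These step ratios are by CPM.

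Genes that work with the proteasome were taken from 2 lists. Of 18 partners (further subunits, assembly factors, associated enzymes and the transcription factors Nfe2l1 and Nfe2l2), 15 symbols were in the files and 3 could be compared in round- and 4 in elongating-spermatid-like cells, of which 0 and 0 differed 2-fold between libraries. In Sertoli-like cells 3 of 12 were 2-fold higher in the knockout and 0 lower, against 23.4% of all genes: Ecpas at 39.3 and 111 CPM, Nfe2l1 at 23 and 53.4 CPM and Ube3c at 23.6 and 53.4 CPM. Sem1, a small lid subunit, stood at 403 and 476 CPM in round- and 42 and 81.5 CPM in elongating-spermatid-like cells (log2 ratio 0.96, 0.83 to 1.09). Ngly1, the enzyme that prepares Nfe2l1 for activity, stood at 275 and 334 CPM in round-spermatid-like cells and Akirin2, needed for nuclear import of proteasomes, at 236 and 311 CPM in elongating-spermatid-like cells. From spermatogonia-like to late-spermatocyte-like cells 1 of 14 partners was at least 2-fold higher and 7 lower in both libraries, against 24.5% and 29.0% of all genes. From the list of ubiquitin and shuttle genes, Ubb, a polyubiquitin gene, stood at 2065 and 3240.1 CPM in elongating-spermatid-like cells, with a log2 ratio of 0.65. Rps27a, which encodes ubiquitin joined to a ribosomal protein, stood at -0.60 in round- and 0.54 in elongating-spermatid-like cells. The TMM shift of -0.53 in the latter class applies to Sem1, Akirin2, Ubb and Rps27a alike. It is about as large as the Rps27a ratio and larger than the Akirin2 log2 ratio of 0.40. Ubiquitin genes have near-identical copies, so these counts are uncertain.

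Psmc3ip (ENSMUSG00000019303, chromosome 11 from 101091823 to 101095436, minus strand), the recombination cofactor that matched by name only, was at 86.3 and 176 CPM in step 1, 439 and 544 CPM in step 3, its peak, and 69.5 and 109.6 CPM in step 10. It was higher in the knockout library by a log2 ratio of 1.02 (0.69 to 1.37) in spermatogonia-like and 0.41 (0.37 to 0.45) in late-spermatocyte-like cells, and stood at 0.010 in Sertoli-like cells. Psmc3ip was 5.09-fold and 3.10-fold higher in step 3 than in step 1. The late spermatocyte markers stood at 403 and 812 CPM in spermatogonia-like cells, and their part in the ratio there was not tested.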

How the data were processed

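Whole testis cells were sequenced in 2 libraries with the 10x Genomics 3' kit, per the labels' protocols. The deposited files hold raw UMI counts per gene and barcode as whole numbers, which per the file headers the authors made with Cell Ranger 7.1.0. The mm10 build and Seurat 4.1.0 come from the submitters' processing notes. Columns of other samples numbered 0. Strand use in counting is not given in the sources used here.

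Filters were a minimum of 500 UMIs and 250 genes per cell and a maximum of 20% for mitochondrial UMIs, and doublets were removed with Scrublet (scanpy 1.11.5). Both libraries were clustered together without integration (2000 variable genes without the proteasome genes, scaled to unit variance, 30 components, 20 neighbours, Leiden resolution 1), giving 25 clusters, named from 13 marker sets by a scoring rule set after the data were seen. A name needs a mean standardized level of 0.5, a lead of 0.25 and 3 markers over 10 CPM. Scaling the genes was also chosen after the data were seen.

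UMIs were summed per class and library. Intervals at 95% are exact Poisson for levels, Clopper-Pearson for shares and exact conditional binomial for ratios; a count of 0 was set to a floor of 3 counts. The comparison was checked on simulated counts. The members and lists were chosen with earlier results of these data known. Genes named in full are Psma7, Psma8, Psmb5 to Psmb11, Psme1 to Psme4 and Psmf1, the 5 highest and lowest ratios per class, the highest and lowest of each role, the 5 genes most like Psma8 and Psme4, and up to 4 genes of each pathway list per spermatid class. Other genes are named after their values were seen. Some genes of the pathway lists are not reported here. Of the gene identifiers, 32158 of 32285 were found in GENCODE M21, all 50 matches among them. Alternatives covered filters, doublets, clustering, minimums, depths of thinning, weights and TMM (edgeR 4.0.16).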

Additional observations from a re-analysis of the deposited data

How the results depend on the processing

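Settings tried were minimums of 1000 UMIs per cell and of 10 or 200 CPM per gene, at most 10% mitochondrial UMIs, doublets kept, Leiden resolutions 0.5 and 2, separate clustering, members among the variable genes, TMM, cells weighted equally and other thinning depths, and, chosen after seeing the data, unscaled genes, deep clusters only (median of at least 2000 UMIs) and clusters weighted equally. No paired analysis was possible because each genotype has 1 library. Of 538 values, 339 stayed within counting error or 1.5 times the reported count; the cause of the others was not tested.

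The number of members 2-fold apart in late-spermatocyte-like cells stayed 0 in every setting and was 1 in round-spermatid-like cells with separate clustering. In elongating-spermatid-like cells it was 2 as reported, 1 with doublets kept, unscaled genes or clusters weighted equally, 0 at resolution 0.5, with TMM or at 200 CPM, and 10 at 10 CPM.

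The median ratio in late-spermatocyte-like cells changed from 0.14 to -0.085 with separate clustering and -0.11 at 200 CPM. In round-spermatid-like cells it was 0.043 with clusters weighted equally. In elongating-spermatid-like cells it was -0.21 with TMM, 0.52 with separate clustering, 0.18 with clusters weighted equally, 0.64 at 10 CPM and 0.0085 at 200 CPM.

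The Psma8 share in late-spermatocyte-like cells moved little. In the heterozygous library it was 86% with 1000 UMIs, 86.3% at resolution 2 and 86.3% with members among the variable genes. In the knockout library it was 88.4%, 87.5% and 87.4% there, 88% at resolution 0.5, 87.3% with separate clustering, 86.8% with cells weighted equally and 90.2% in deep clusters.

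Stage counts moved most. From spermatogonia- to late-spermatocyte-like cells 1 member was higher with doublets kept, members among the variable genes or cells weighted equally, and 19 were lower with 1000 UMIs, 20 with members among the variable genes and 6 at 200 CPM. From late-spermatocyte- to round-spermatid-like cells 4 were higher with members among the variable genes and 0 with cells weighted equally, and 6 were lower with 1000 UMIs, members among the variable genes or cells weighted equally, 7 at resolution 2, 1 at 200 CPM and 21 in deep clusters. From round- to elongating-spermatid-like cells 1 was higher at resolution 0.5, with separate clustering, with members among the variable genes, at 200 CPM and in deep clusters, and 24 were lower at 10 CPM and 2 at 200 CPM.

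Ratios of single genes changed sign in some settings. Psma6 in late-spermatocyte-like cells, -0.14 as reported, was 0.056 (all doublets kept), 0.0016 (resolution 0.5), 0.10 (unscaled genes), 9.1e-04 (deep clusters only). Psma8 in late-spermatocyte-like cells, 0.17 as reported, was -0.41 (own clustering), -0.046 (deep clusters only). Psma6 in round-spermatid-like cells, 0.12 as reported, was -0.0058 (own clustering), -0.078 (cells weighted equally), -0.028 (deep clusters only), -0.096 (clusters weighted equally). Psmf1 in round-spermatid-like cells, 0.16 as reported, was -0.26 (own clustering), -0.010 (deep clusters only), -0.18 (clusters weighted equally). Psme4 in round-spermatid-like cells, -0.083 as reported, was 0.056 (own clustering), 0.019 (members among variable genes), 0.14 (cells weighted equally), 0.21 (clusters weighted equally). Psme3 in round-spermatid-like cells, 0.47 as reported, was -0.38 (own clustering). Psma6 in elongating-spermatid-like cells, -0.038 as reported, was 0.031 (resolution 0.5), 0.18 (clusters weighted equally). Psme3 in elongating-spermatid-like cells, 0.48 as reported, was -0.046 (TMM), -0.22 (clusters weighted equally). Psmb2 kept its direction in both classes in every setting that gave a value, from 0.58 to 0.92 in late-spermatocyte- and 0.69 to 1.02 in round-spermatid-like cells.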

Other observations

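Clusters outside the 11 steps are given here as values. A shallow round-spermatid-like cluster led mostly by predicted and clone-named genes (474 heterozygous and 646 knockout cells) had Psme4 at 317 and 390.4 CPM, the highest of all clusters in both libraries, against 154 and 157 CPM in step 6, with Psma6 at 712 and 634 CPM. The shallow early-spermatocyte-like cluster beside step 2 had Psme4 at 257 and 316 CPM.

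A cluster with both Sertoli and elongating spermatid markers, 45 heterozygous and 216 knockout cells, had spermatid levels of Psma6 (1449 and 1575 CPM) and Psmf1 (1088 and 1028 CPM) together with Psma7 at 120.4 and 102 CPM, between its levels in Sertoli-like cells and in elongating-spermatid-like cells. An unnamed cluster of 2931 heterozygous and 46 knockout cells led by ribosomal RNA-like features had Psma6 at 853 and 525 CPM and Psma8 at 74.4 and 114 CPM. The stromal and myoid cluster had Psma7 at 171 and 115 CPM and Psmb2 at 121 and 125 CPM (27 and 50 UMIs).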
